A study of Mus musculus with 4 samples.

Results

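The DEAD-box and DEAH-box RNA helicases were followed in mouse embryonic stem cells that lost Exosc3, part of the core of the RNA-degrading exosome. Members were the rows of the deposited expression table whose symbol begins with Ddx or Dhx and a number, less 2 symbols that the selection left out. This gave 41 genes, 28 named Ddx and 13 named Dhx, among 22883 rows. Each of the 41 symbols had a single row. On lists of helicases by role, 10 further symbols had no row, among them Ddx5, Ddx6, Ddx17, Ddx49 and Ddx54. They were not followed under those names, and statements on the family concern the 41 genes alone. The cells were clones of the V6.5 line with a conditional knockout of Exosc3, grown without feeder cells. All 4 libraries carried this knockout. In the Exosc3-present group (2 libraries) the clones stayed in 0.1 µg/ml doxycycline, and in the Exosc3-depleted group (2 libraries) doxycycline was withdrawn for 3 days. Doxycycline and Exosc3 therefore cannot be told apart, the number of clones is not stated, and nothing in the labels ties each replicate to its own culture. The p-values below then measure the spread between these samples, which may be technical.

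DEAD-box and DEAH-box proteins use ATP to unwind RNA duplexes or to strip proteins from RNA, and are named for the residues of a shared ATP-binding motif. Different members drive steps of splicing, nucleolar ribosome assembly, mRNA export through the nuclear pore, translation initiation and RNA turnover. The RNA exosome degrades and trims many nuclear and cytoplasmic RNAs from their tail end, and relies on helicases of a related family to feed it.

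Values are FPKM, fragment counts scaled to the length of the gene model and to the library total, so that levels of different genes are compared per length. Exosc3 itself went from 24.2 and 23.2 FPKM in the Exosc3-present libraries to 0.635 and 0.691 in the Exosc3-depleted ones (log2 -4.38, limma adjusted p = 0.00013), as the labels state. The per-million totals recovered from the spacing of the values were 60851774 and 55233386 fragments for Exosc3-present and 38095698 and 41968325 for Exosc3-depleted. Tested members held between 73 (Ddx43) and 16143 fragments (Dhx16) per library. These are the least counts that fit the values. Of 8 embryonic stem cell markers 6 had a row, and these summed to between 1295 and 3081 FPKM per library, with the Exosc3-depleted libraries lowest at 1953 and 1295. Of the 6, Dppa5a, Esrrb, Tdgf1 and Zfp42 were called lower in Exosc3-depleted cells (4) and 0 higher, while Pou5f1 and Utf1 were not called. All 8 fibroblast markers had a row and summed to between 2.795 and 4.004 FPKM, with Lum listed at 0 in every library. Of these 4 were tested, of which 2 were called higher (Pdgfra and Twist1) and 1 lower (Thy1). Among all tested rows 30.1% were called lower and 12.6% higher, and 6 and 4 genes are too few to set against these shares. What part these markers have in the helicase values was not tested.

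Dhx16 was the 1 helicase RNA whose rise passed the test when Exosc3 was lost, and the family's median change was close to that of all rows. Of 38 members with a mean of at least 0.5 FPKM, which is the level required for testing, 1 was higher and 7 were lower in Exosc3-depleted cells at a limma adjusted p under 0.05. Among all 9336 tested rows 12.6% were higher and 30.1% lower, against 2.63% and 18.4% of the helicases. Fold changes were taken as differences of log2(FPKM + 0.5), which understates the change of low genes. The median helicase was at log2 -0.29 and the median tested row at -0.27, so the family's median lay 0.03 below that of all rows. Exosc3-depleted values lay wholly below Exosc3-present values for 19 helicases (50.9% of all tested rows did so) and wholly above for 3 (22.2% of all tested rows). The groups overlapped for the other 16. In number, 33 helicases had a negative log2 change and 22 were below the median row.

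The falls depended on how the libraries were scaled. With median-of-ratios scaling, which moved the median row to log2 0.01, 4 helicases were higher (Ddx3x, Ddx43, Ddx56 and Dhx16) and 2 lower (Ddx11 and Ddx25), and the share of all called rows that were higher went from 29.6% to 53.4%. Quantile normalization gave 2 higher (Ddx56 and Dhx16) and 2 lower helicases (Ddx11 and Ddx25), and scaling without the 50 highest rows gave 2 higher and 0 lower, with 3 lower at an unadjusted p under 0.05 by limma. Background shares of rows called lower under these scalings were 16.8%, 19.1% and 14%, and of rows called higher 19.2%, 16.9% and 16.9%. Ddx18, Ddx19a, Ddx27, Ddx47 and Dhx8 did not pass under any of the 3. A fall below therefore means a fall relative to the library total. For each helicase called lower, the change relative to the median row is also given. Genes of the other lists are given without it and under the reported scaling only. Their changes are to be read against the median row at log2 -0.27.

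**Figure D1:**
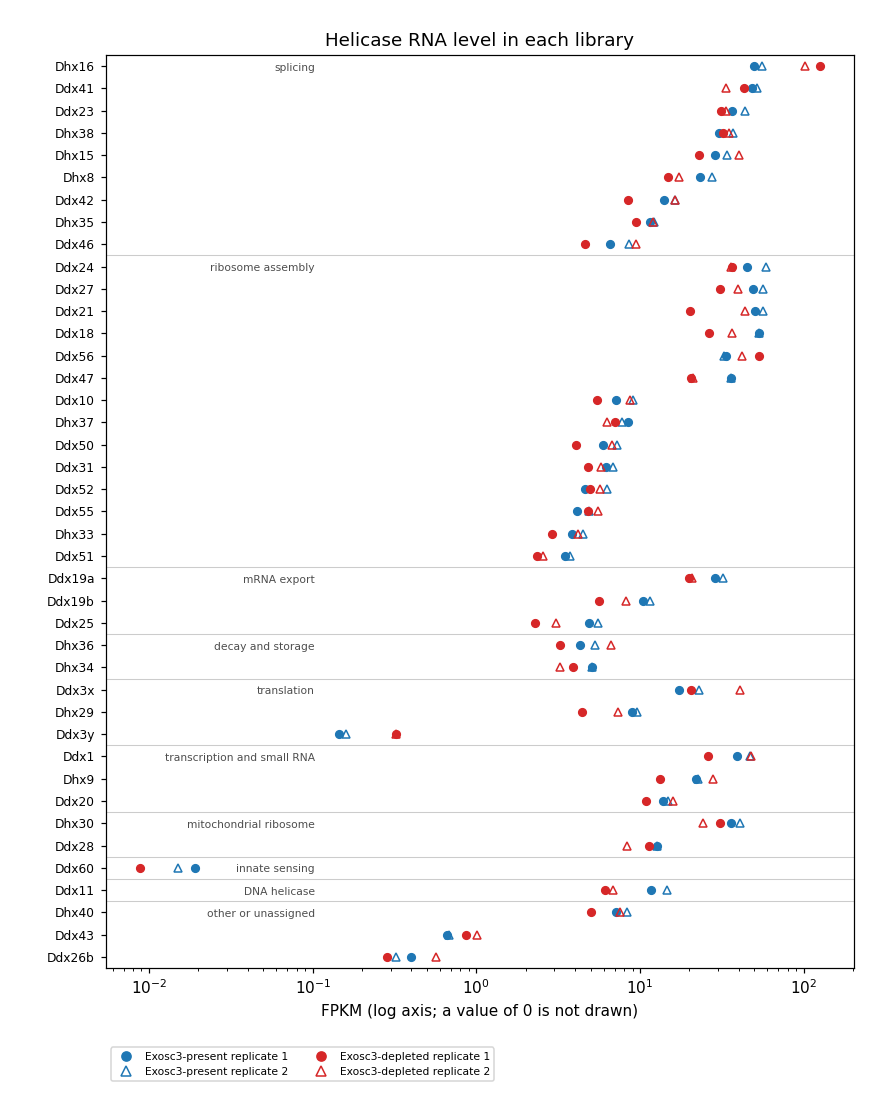
FPKM of each of the 41 helicases in each library on a log axis, ordered by role and then by mean level. Filled circles are replicate 1 and open triangles replicate 2, blue for Exosc3-present and red for Exosc3-depleted; Dhx16, in the top row, has both red symbols (125 and 102.5 FPKM) to the right of both blue ones (49.9 and 55.8), and the value of 0 of Ddx60 is not drawn.

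**Figure D2:**
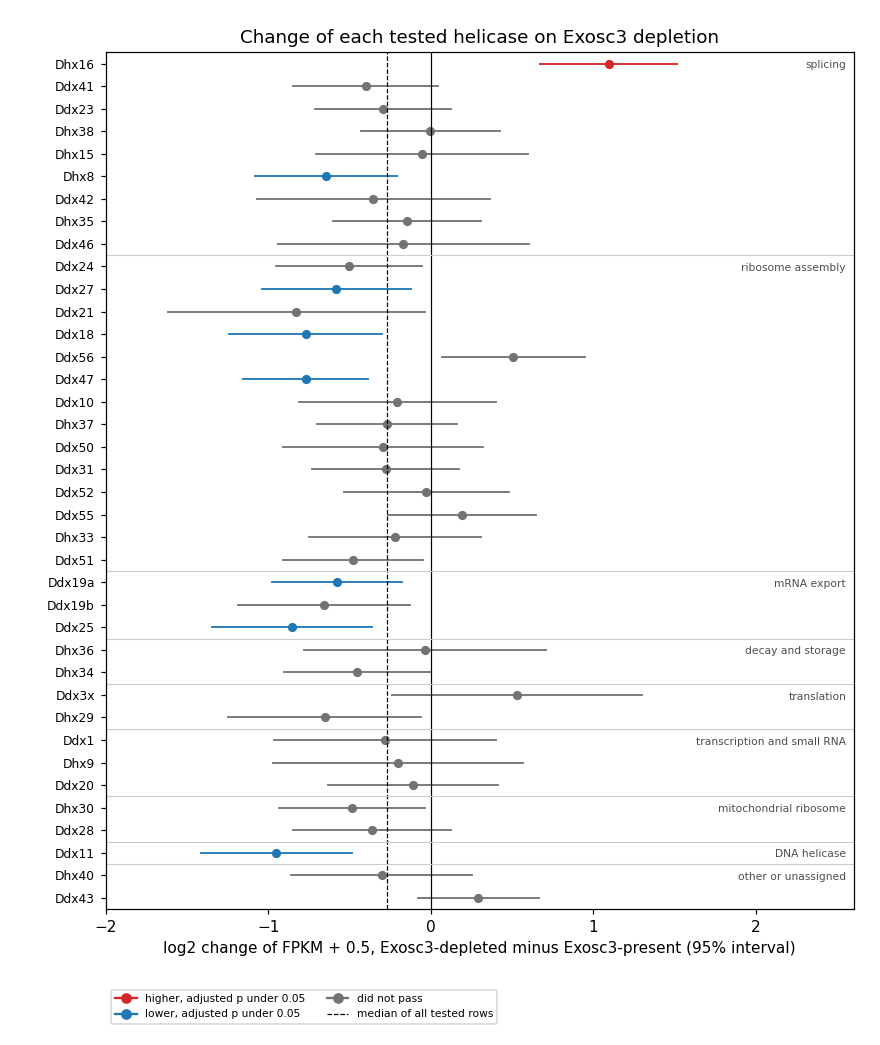
Change of each of the 38 tested helicases as a difference of log2(FPKM + 0.5), Exosc3-depleted minus Exosc3-present, with its 95% limma interval. The dashed line is the median of all tested rows at -0.27; most intervals cross it, and that of Dhx16 lies wholly to the right of 0.

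Promoter windows are shown for Dhx16 and for 3 of the 7 helicases called lower, as the stretch before the start site of genes called in opposite directions. The falls of these 3 did not pass under any of the 3 other scalings. Ddx11 and Ddx25, which passed under 2 of those scalings, are not shown. Each is 250 bases ending at the annotated start, from RefSeq on the GRCm38.p6 build; the expression rows were made on mm9. Their positions are chr17:35879528-35879777 (plus strand) for Dhx16, chr1:121567981-121568230 (minus strand) for Ddx18, chr6:135011362-135011611 (plus strand) for Ddx47 and chr11:101732706-101732955 (plus strand) for Dhx8. Capitals mark matches on either strand to any of 5 motifs. The E-box was searched as CACGTG. The CCAAT box was searched by those letters. The TATA box was searched as TATAAA, while the cAMP response element was searched as TGACGTCA. The motif of ETS factors was searched as CCGGAAG. No motif of the 5 lies within another.
Dhx16: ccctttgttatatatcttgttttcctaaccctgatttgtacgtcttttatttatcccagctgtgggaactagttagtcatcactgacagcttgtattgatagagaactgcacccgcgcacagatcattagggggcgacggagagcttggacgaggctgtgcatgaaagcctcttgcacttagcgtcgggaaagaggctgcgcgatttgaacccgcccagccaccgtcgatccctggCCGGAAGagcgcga
Ddx18: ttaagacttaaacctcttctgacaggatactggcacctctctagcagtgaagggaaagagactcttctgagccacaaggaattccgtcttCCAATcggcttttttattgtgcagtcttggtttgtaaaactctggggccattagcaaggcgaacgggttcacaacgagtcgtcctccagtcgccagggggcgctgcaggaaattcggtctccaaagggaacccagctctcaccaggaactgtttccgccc
Ddx47: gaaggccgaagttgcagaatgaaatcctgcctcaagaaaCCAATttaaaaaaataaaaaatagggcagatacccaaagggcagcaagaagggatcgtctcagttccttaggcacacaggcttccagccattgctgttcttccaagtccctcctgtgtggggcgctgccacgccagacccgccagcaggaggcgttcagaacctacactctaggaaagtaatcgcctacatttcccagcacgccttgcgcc
Dhx8: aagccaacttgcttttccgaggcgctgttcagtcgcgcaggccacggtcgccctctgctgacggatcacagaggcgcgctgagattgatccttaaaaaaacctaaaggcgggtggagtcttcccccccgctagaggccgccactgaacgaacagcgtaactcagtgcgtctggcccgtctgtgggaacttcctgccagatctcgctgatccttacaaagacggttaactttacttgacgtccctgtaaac
Dhx16 had an ETS motif beginning at position -14 from its start, Ddx18 and Ddx47 each had a CCAAT box, at -160 and -211, and the Dhx8 window had none of the 5. Of the 41 helicases 38 had an entry in the promoter table, Ddx26b under its current name Ints6l. These are not the same genes as the 38 tested helicases, since they include Ddx26b and Ddx60, which were not tested. Among the 38 with an entry the ETS motif stood in 28.9% (11 genes), against 16.4% of tested genes with an entry and 7.83% of all genes. The CCAAT box stood in 50% against 40.8% and 37.5%, the E-box in 10.5% against 10.8% and 6.86%, the cAMP response element in 7.89% against 3.49% and 1.77%, and the TATA box in 2.63% against 7.24% and 14.3%. A match describes the letters of the window only.

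Of the 9 splicing helicases 1 was called higher and 1 lower by limma, against 12.6% and 30.1% of all tested rows. Dhx16, the counterpart of yeast Prp2, which readies the assembled spliceosome for its first catalytic step, had 49.9 and 55.8 FPKM in Exosc3-present cells and 125 and 102 FPKM in Exosc3-depleted cells. Both depleted libraries lay above both controls. The ratio of means was 2.15, and the change was log2 1.09 (SE 0.18, limma adjusted p = 0.0035), or 1.36 relative to the median row. In Exosc3-present cells its mean of 52.9 FPKM was below those of Ddx21 (53.5) and Ddx18 (53.3). In Exosc3-depleted cells its mean of 113.7 FPKM was above that of every other Ddx or Dhx member with a row. Under all 16 alternative settings it was higher with an adjusted p under 0.05, with log2 changes between 0.95 and 1.24 when any single library was left out. In the GENCODE M21 annotation (GRCm38), small RNA genes aside, no other gene overlaps Dhx16 on either strand. Small RNA genes were sought only inside Dhx16 on its own strand, and none was found.

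Dhx8, the counterpart of Prp22, which releases finished mRNA from the spliceosome, went from 23.3 and 27.6 FPKM to 14.9 and 17.3. The groups did not overlap, and the fall was 0.65 on the log2 scale (change -0.65, SE 0.19, adjusted p = 0.0289 by limma). Relative to the median row it was -0.38, and after median-of-ratios scaling it did not pass (log2 -0.33, adjusted p = 0.232). The other 7 splicing members did not pass. Ddx41, a spliceosome-associated helicase, was at 50.4 ± 2.5 FPKM (SD, n = 2) and 38.4 ± 6.9 FPKM (n = 2), with a log2 change of -0.40 and a 95% interval from -0.85 to 0.04. Dhx38, the counterpart of Prp16, which acts at the second catalytic step, was at 33.7 ± 4.8 and 33.5 ± 2.1 FPKM (log2 -0.00, interval -0.43 to 0.42). Ddx23 of the tri-snRNP, Ddx42, Ddx46, Dhx35 and Dhx15, the counterpart of the disassembly factor Prp43, had log2 changes between -0.35 (Ddx42) and -0.05 (Dhx15). The 9 splicing members had a median log2 change of -0.17, which is 0.10 above the median row; without Exosc3-present replicate 1 it was -0.0556 from the median row, and without Exosc3-depleted replicate 1 it was 0.25 above.

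Among 14 helicases of nucleolar ribosome assembly 3 were lower and 0 higher by limma, and at an unadjusted p under 0.05 the counts were 6 and 1. Of all tested rows 30.1% were called lower and 12.6% higher, and 4801 of 9336 had an unadjusted p under 0.05, so the group did not exceed the background. Ddx18, which acts on the large subunit, went from 53.6 and 53.1 FPKM to 26.5 and 36.4. Ddx47, needed for small subunit RNA processing, went from 35.8 and 35.9 FPKM to 20.5 and 21.2, with close agreement within each pair. Ddx27, another large subunit factor, went from 48.6 and 56.0 FPKM to 30.6 and 39.5. For all 3 every depleted library lay below every control. Their log2 changes were -0.77, -0.77 and -0.58, with limma adjusted p-values of 0.0198, 0.0093 and 0.0475 and changes relative to the median row of -0.50, -0.50 and -0.31.

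The pattern within the ribosome group was not uniform. Ddx21, a nucleolar helicase that also acts with RNA polymerase I, had the largest negative change of the 14 but did not pass, and its depleted libraries lay far apart. It stood at 50.5 and 56.4 FPKM in Exosc3-present cells and at 20.3 and 43.7 in Exosc3-depleted cells (log2 -0.83, interval -1.62 to -0.04, limma adjusted p = 0.0851). Its paralogue Ddx50 was at 5.93 and 7.24 FPKM against 4.07 and 6.74 (log2 -0.29). The Ddx21 to Ddx50 ratio was 8.52 and 7.79 in the Exosc3-present libraries and 4.99 and 6.49 in the Exosc3-depleted ones. These ratios did not overlap, but 2 libraries against 2 allow no exact two-sided permutation p under 0.333.

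Ddx56, a large subunit assembly factor, went the other way, from 33.5 and 32.5 FPKM to 53.3 and 41.8, again without overlap. Its log2 change of 0.51 (SE 0.18) had a limma adjusted p = 0.0628. It passed under each of the 3 other scalings (log2 0.82, adjusted p = 0.0248 with median-of-ratios scaling). Ddx55 had a log2 change of 0.19 (interval -0.27 to 0.64). Ddx24, another large subunit factor, had 51.9 ± 9.9 FPKM in Exosc3-present cells and 36.1 ± 0.22 in Exosc3-depleted cells (log2 -0.50, adjusted p = 0.0691). The other members, Ddx10, Ddx31, Ddx51, Ddx52, Dhx33 and Dhx37, had log2 changes between -0.48 (Ddx51) and -0.03 (Ddx52). The 14 had a median log2 change of -0.29, which is 0.02 below the median row.

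The 3 helicases linked to mRNA export all had depleted values below both controls, and 2 of the 3 fell by limma. Of all tested rows 50.9% lay wholly lower and 30.1% were called lower, and 3 genes are too few to set against these shares. Ddx19a, which remodels mRNA particles as they leave the nuclear pore, went from 28.8 and 32.3 FPKM to 19.8 and 20.8 (log2 -0.58, SE 0.17, adjusted p = 0.0309 by limma). Ddx25, a relative best known from male germ cells, went from 4.85 and 5.52 FPKM to 2.27 and 3.06 (log2 -0.85, limma adjusted p = 0.0163). Relative to the median row the changes of Ddx19a and Ddx25 were -0.31 and -0.58. Ddx19b, the close paralogue of Ddx19a, went from 10.4 and 11.5 FPKM to 5.58 and 8.18 and missed the threshold (log2 -0.66, adjusted p = 0.0511). The median log2 change of the 3 was -0.66, and -0.39 when counted from the median row. The Ddx19a to Ddx19b ratio was 2.77 and 2.80 in Exosc3-present cells and 3.54 and 2.54 in Exosc3-depleted cells, so it overlapped. These sequences are similar, and how shared fragments were divided is not given in the sources used here. Of 10 tested partners of export helicases, 4 were lower and 1 higher, near the 30.1% and 12.6% of all tested rows. Sarnp, a protein of the TREX export complex, went from 58.2 ± 10.96 to 25.01 ± 0.50 FPKM (log2 -1.19, adjusted p = 0.0032). Thoc5, a THO complex subunit, fell by 0.76 on the log2 scale, and the nucleoporin gene Nupl2 rose by 0.83. Bat1a, an older name for the export helicase Ddx39b, had 138 ± 5.6 FPKM in Exosc3-present cells and 149.8 ± 26 in Exosc3-depleted cells (log2 0.11, adjusted p = 0.662).

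The RNA turnover helicases with a row were Dhx34, which takes part in nonsense-mediated decay, and Dhx36, which opens guanine quadruplexes and binds AU-rich RNAs. Neither passed by limma, and Dhx34 had an unadjusted p under 0.05. Dhx34 was at 5.08 and 5.08 FPKM in Exosc3-present cells and 3.91 and 3.25 in Exosc3-depleted cells (log2 -0.46, adjusted p = 0.0924), without overlap. Dhx36 was at 4.28 and 5.32 FPKM against 3.24 and 6.60, so the depleted libraries fell on either side of the controls. Its log2 change was -0.03 with an interval from -0.78 to 0.71. Of 11 tested partners of decay helicases 2 fell and 0 rose, against 30.1% and 12.6% of all tested rows. The 2 were Lsm14b (log2 -1.02, adjusted p = 0.0057) and Patl1 (log2 -0.91, adjusted p = 0.0176), both proteins of cytoplasmic mRNA granules. Edc4, a scaffold of the decapping complex, was the third by p, at 29.9 ± 0.20 and 41.5 ± 0.86 FPKM (log2 0.46, adjusted p = 0.0534). The helicases that serve the exosome itself carry other names. Skiv2l2, the nuclear exosome helicase, had 14.0 ± 1.9 FPKM with Exosc3 and 12.3 ± 4.8 FPKM without it (log2 -0.23, adjusted p = 0.537), and Skiv2l, its cytoplasmic counterpart, at 10.1 ± 0.18 and 8.27 ± 0.80 FPKM (log2 -0.27, adjusted p = 0.262).

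The 2 tested translation helicases with Ddx or Dhx names pointed in opposite directions, and neither passed. Eif4a1, which has another name, is given below. Ddx3x, which helps ribosomes start on structured mRNA leaders, was at 17.3 and 22.8 FPKM in Exosc3-present cells and 20.5 and 40.8 in Exosc3-depleted cells. The groups overlapped, and the log2 change of 0.53 had an interval from -0.24 to 1.296 and an adjusted p = 0.23 by limma. With median-of-ratios scaling Ddx3x was called higher (log2 0.84, adjusted p = 0.044). It was also called higher without Exosc3-depleted replicate 1 (log2 1.02, adjusted p = 0.000382), while without Exosc3-depleted replicate 2 its log2 change was 0.0391 (adjusted p = 0.846). Dhx29, which binds the small ribosomal subunit during scanning, was at 8.91 and 9.58 FPKM against 4.41 and 7.31 (log2 -0.65, interval -1.25 to -0.06, adjusted p = 0.0746 by limma). Ddx3y, the paralogue of Ddx3x on the Y chromosome, was too low to be tested, at 0.145 and 0.160 FPKM against 0.322 and 0.324. These levels rest on 41, 41, 57 and 63 fragments, and without the filter on low values Ddx3y was called higher (limma adjusted p = 0.0193). Fragments shared with Ddx3x could be split in a way not recorded here.

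Ddx1, Dhx9 and Ddx20 did not pass by limma, and none had an unadjusted p under 0.05. Ddx1, a subunit of the tRNA ligase complex, was at 39.1 and 46.9 FPKM against 26.0 and 47.6 (log2 -0.28). Dhx9, also called RNA helicase A, was at 21.9 and 22.7 FPKM against 13.3 and 28.0 (log2 -0.20). Ddx20, part of the SMN complex that loads Sm proteins on small nuclear RNAs, was at 13.9 and 14.8 FPKM against 10.9 and 16.0 (log2 -0.11). In all 3 genes the first depleted library lay below both controls and the second above them. The sign of all 3 turned positive under each of the 3 other scalings. Of the mitochondrial ribosome helicases, Dhx30 was at 36.1 and 40.7 FPKM against 30.7 and 24.2 (log2 -0.48, adjusted p = 0.0773) and Ddx28 at 12.6 and 12.7 FPKM against 11.4 and 8.33 (log2 -0.36, adjusted p = 0.198). Each of these 2 genes overlaps a protein-coding gene on the opposite strand in GENCODE M21, and whether the counting used strand is not given in the sources used here.

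Ddx11, which despite its name is a DNA helicase needed for sister chromatid cohesion, had the largest fall of the family. It went from 11.6 and 14.6 FPKM to 6.12 and 6.88 FPKM, and the control mean was 2.02 times the depleted mean. The log2 change was -0.95 (SE 0.20, limma adjusted p = 0.0085), or -0.68 relative to the median row. It was lower with an adjusted p under 0.05 in 14 of 16 alternative settings. The exceptions were scaling without the 50 highest rows (adjusted p = 0.0581) and the fit without Exosc3-present replicate 2 (0.188). Dhx40, without an assigned role, was at 7.72 ± 0.77 and 6.27 ± 1.8 FPKM. Ddx43, a helicase of germ cells, was at 0.662 and 0.680 FPKM against 0.867 and 1.003, without overlap (log2 0.29, limma adjusted p = 0.175), and with median-of-ratios scaling it was called higher (log2 0.49, adjusted p = 0.0391). The untested Ddx26b is a paralogue of the Integrator subunit Ints6 and was at 0.401 and 0.323 FPKM against 0.283 and 0.569. Ddx60, an antiviral helicase, had at most 7 fragments in any library and 0 in the second depleted one.

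Across 13 tested RNA helicases with other names 2 were lower and 0 higher by limma, against 30.1% and 12.6% of all tested rows. Eif4a1, the DEAD-box translation initiation helicase, was more abundant than any Ddx or Dhx member and went from 733 and 693 FPKM to 276 and 423 (log2 -1.06, adjusted p = 0.0089). Mov10, an RNA helicase that restrains retroelements, went from 31.3 ± 2.8 to 1.84 ± 0.46 FPKM (log2 -3.77, adjusted p = 0.000138). Eif4a3, the DEAD-box core of the exon junction complex, was the third by p, at 177 ± 14 and 133 ± 22 FPKM (log2 -0.42, adjusted p = 0.104). Snrnp200, which unwinds spliceosomal RNAs, was at 98.4 ± 15.04 and 89.6 ± 29.2 FPKM. Of 11 tested G-patch proteins, cofactors that switch on DEAH helicases, 2 were higher and 1 lower, against 12.6% and 30.1% of all tested rows. Rbm17, a splicing regulator, went from 46.8 and 51.3 FPKM to 84.7 and 109 FPKM (log2 0.97, adjusted p = 0.0068). Gpatch3 rose by 0.75 and Gpatch8 fell by 0.82 on the log2 scale, while Gpkow, the G-patch partner of Dhx16, had a log2 change of -0.34 (adjusted p = 0.201).

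Replicates differed more in Exosc3-depleted cells. Replicate 2 exceeded replicate 1 for 30 of the 38 helicases in the depleted pair (57.6% of all tested rows) and for 35 in the present pair (67.2%). Exosc3-depleted replicate 2 was more than 1.5 times replicate 1 for 12 of the 38 tested helicases (31.6%, against 24.9% of all tested rows), and the reverse held for 0 helicases (3.32% of all tested rows). The 12 were Ddx1, Ddx10, Ddx21, Ddx3x, Ddx42, Ddx46, Ddx50, Dhx15, Dhx29, Dhx36, Dhx40 and Dhx9, listed after their values were seen, and none of them passed the test. A wide gap raises the spread that the test uses, so the selection itself made a call less likely. Ratios reached 2.15 for Ddx21 and 2.10 for Dhx9. Across all tested rows the SD of the log2 difference was 0.432 between the depleted pair and 0.188 between the present pair.

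**Figure D3:**
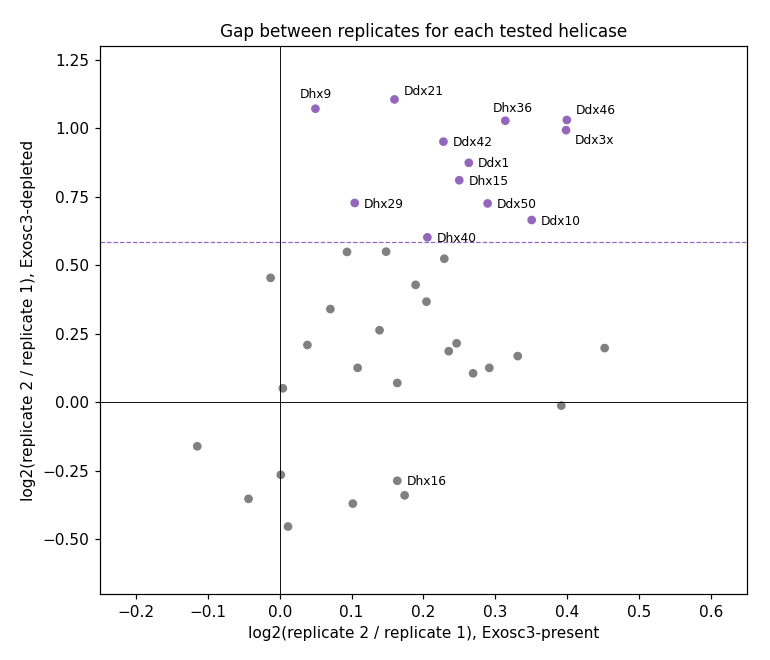
Log2 ratio of replicate 2 to replicate 1 for the 38 tested helicases, in Exosc3-present cells (horizontal) and Exosc3-depleted cells (vertical); the axes differ in range. Purple points above the dashed line are the 12 genes whose second depleted library was over 1.5 times the first; Dhx16 lies below 0 on the vertical axis.

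Leaving out single libraries moved the calls. Without Exosc3-present replicate 1, 1 helicase was lower (Ddx11; 5 at an unadjusted p under 0.05), and without Exosc3-present replicate 2, 0 were (3 at an unadjusted p under 0.05; limma). Without Exosc3-depleted replicate 1, 14 were lower and 4 higher. Without Exosc3-depleted replicate 2, 25 were lower and 2 higher. Background shares of rows called lower in these 4 fits were 14.6%, 11.6%, 40.6% and 50.5%, and of rows called higher 7.19%, 7.16%, 23.4% and 17.3%. Such a fit takes its residual spread from the intact pair, and the 2 pairs differed in spread. Dhx36 was called in opposite directions, at log2 0.43 without the first depleted library and -0.50 without the second (limma adjusted p = 0.0331 and 0.0164). Without a filter on low values 2 helicases were higher and 6 lower (11.3% and 18.7% of rows), and with the filter at 2 FPKM 1 was higher and 8 lower (10% and 33.5%). With the replicate number as a block 3 were higher and 12 lower (15.3% and 37.1%). Each of the other 6 settings gave 1 higher and 7 lower helicases, where between 9.01% and 12.7% of rows were higher and between 29.6% and 32.1% lower; the values were 12.5% and 29.6% at pseudocount 0.1, 12.6% and 30.2% at pseudocount 1, 12.5% and 30.2% without the trend, and 12.6% and 29.8% with the robust fit.

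**Figure D4:**
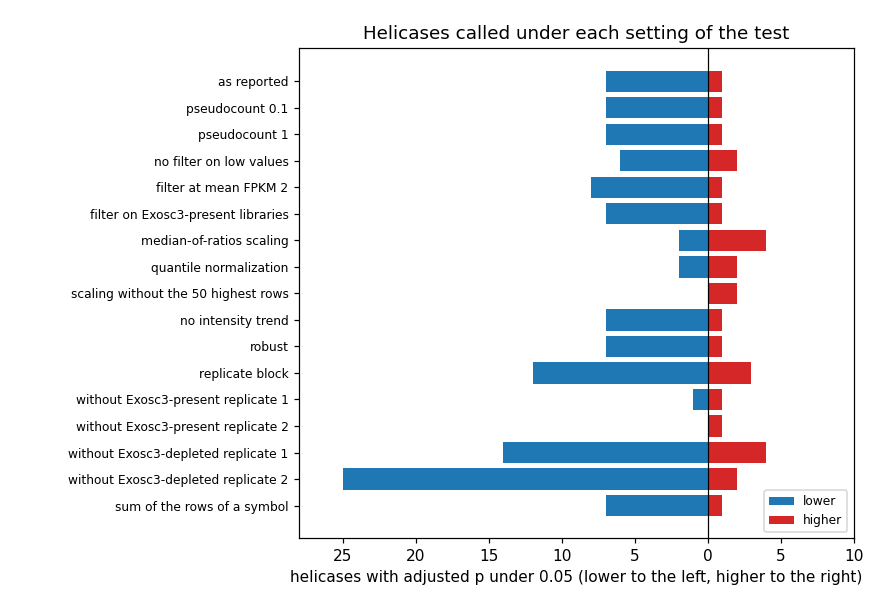
Number of helicases with a limma adjusted p under 0.05 under the reported setting and each of 16 alternatives, lower to the left and higher to the right. Lower calls range from 0 to 25 and higher calls from 1 to 4; Dhx16 is among the higher calls in every bar.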

How the data were processed

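Total RNA of 4 libraries (2 Exosc3-present, 2 Exosc3-depleted) was depleted of ribosomal RNA and sequenced as stranded paired-end libraries, per the labels' protocols. The authors deposited 1 table of 22883 rows with FPKM values, 1 column a library; the unit is that in the table's name. Named in the submitters' processing notes are mm9, Bowtie2, STAR, Picard, bedtools and edgeR, and the step that made the FPKM is not given in the sources used here.

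Values were transformed to log2(FPKM + 0.5), and the 9336 rows whose mean reached 0.5 FPKM were fitted with limma 3.58.1 under R 4.3.3, using its mean-variance trend and no covariates. Two-sided p-values were adjusted by Benjamini and Hochberg's method over these rows (threshold 0.05). The prior had 4.98 and the residual 2 degrees of freedom. Fragments were recovered as the shortest model length giving whole fragments in every library (tolerance 0.01 of a fragment) and served for depth only. Both steps were tested on simulated data. For limma the simulated libraries all had the same spread, and rises and falls were balanced. The unequal spread of the real pairs and a shift of the median row were therefore not covered.

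The helicases, roles and other lists were chosen with earlier results of these data known. Named members are the 6 most positive and 6 most negative changes (5 were above 0, and the sixth is Dhx38 at -0.0045), the 3 smallest p-values and highest mean in each role with at least 3 tested members, every tested member of smaller roles, the 5 highest means and paralogue pairs; other lists give the 3 smallest p-values. Further genes were named after their values were seen. The 16 alternatives covered pseudocount, filter, scaling, variance model, replicate block, summed rows and each library left out.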

Additional observations from a re-analysis of the deposited data

How the results depend on the processing

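Dhx16 was higher, and Exosc3 lower, with an adjusted p under 0.05 under all 16 alternatives. Of 415 refits of the 26 named helicases 327 kept direction and side of the threshold, 32 lost a call, 33 gained one in the same direction and 23 changed sign, of which 1 also passed the threshold (Dhx36 without Exosc3-depleted replicate 1); unless an alternative's construction shows it, the cause was not tested. Over all rows, the higher count was 667 when rows needed a mean of 2 FPKM, 1797 with median-of-ratios scaling, and 668 to 2183 with a library left out. The lower count was 1568 with median-of-ratios scaling, 1782 with quantile normalization and 1311 without the 50 highest rows, and 1082 to 4715 with a library left out. Higher helicases numbered 2 without a filter, 4 with median-of-ratios, 2 with quantile normalization, 2 without the 50 highest rows, and 1 to 4 with a library left out; lower helicases numbered 2, 2 and 0 under these scalings and 0 to 25 with a library left out. Replicate numbers recur in both groups without a label that makes them a pair. The deviations of same-numbered libraries correlated at 0.244 over tested rows, with only 2 pairs. With the replicate block 3 helicases were higher and 12 lower. Role medians relative to the median row without a filter on low values, where the median row stood at -0.04, were: splicing -0.13, ribosome assembly -0.24, export -0.61, decay -0.20, DNA helicase -0.91 and unassigned 0.13. At a mean of 2 FPKM they were 0.0517 for ribosome assembly, 0.093 for decay and 0.0343 for unassigned. The ribosome median was 0.0318 when only Exosc3-present libraries entered the filter and 0.0446 with quantile normalization. The unassigned median was 0.35 at pseudocount 0.1, 0.20 at pseudocount 1 and 0.21 with quantile normalization. With a library left out, medians ranged from -0.0556 to 0.25 for splicing, -0.43 to 0.13 for the mitochondrial ribosome, -0.15 to -0.0242 for ribosome assembly, -0.55 to -0.35 for export, -0.0586 to 0.12 for decay, -0.11 to 0.54 for translation, -0.35 to 0.34 for transcription and small RNA, -0.81 to -0.55 for the DNA helicase and 0.18 to 0.36 for unassigned. Sign changes concerned members that had not passed. With median-of-ratios scaling, quantile normalization and scaling without the 50 highest rows in turn, Ddx1 was at 0.0344, 0.0921 and 0.058, Ddx20 at 0.20, 0.21 and 0.22, Dhx36 at 0.25, 0.24 and 0.28, Dhx38 at 0.31, 0.36 and 0.33, and Dhx9 at 0.11, 0.14 and 0.13; Dhx40 was at 0.0172 under the last. With a library left out the ranges were -0.71 to 0.15 for Ddx1, -0.38 to 0.15 for Ddx20, -0.50 to 0.43 for Dhx36, -0.15 to 0.14 for Dhx38 and -0.72 to 0.32 for Dhx9.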
